A study of Mus musculus with 8 samples.

Results

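Foxp3 binding at genes of the protein phosphatase families was followed across 4 groups of regulatory T (Treg) cell libraries. The families were the dual-specificity phosphatases (Dusp), the non-receptor and receptor-type tyrosine phosphatases (Ptpn and Ptpr), the subunits of the serine/threonine phosphatases (Ppp1 to Ppp4 and Ppp6) and the inositol phosphatases (Inpp). Each deposited Foxp3 binding site was given the protein-coding RefSeq gene whose body, widened by 5 kb, held the site's centre, and otherwise the nearest gene end within 100 kb. Sites were kept when the symbol of that gene began with one of the family names. This gave 91 sites at 34 genes, of 5521 deposited sites, of which 5210 had a gene and lay at 2760 genes. RefSeq lists 148 genes with such symbols, and the other 114 had no listed site. The rule used positions and gene symbols and no site values, but the family was chosen with earlier results of these data known.

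The assay was CUT&Tag, in which an antibody brings a Tn5 transposase to chromatin so that DNA beside the bound protein is tagged and sequenced. The mice were C57BL6/J, and Treg cells (CD4+hCD2+GFP-) were sorted fresh from their spleen and lymph nodes. The WT groups carried Foxp3WT-IRES-hCD2/Foxp3-IRES-GFP and the R397W groups carried Foxp3R397W-IRES-hCD2/Foxp3-IRES-GFP, so that both genotypes shared the GFP-tagged allele and the host mice also held Treg cells that used it. Each genotype had 2 libraries made with an in-house rabbit antibody to Foxp3 and 2 made with normal rabbit IgG, 8 libraries in all. The age of the mice is not given in the labels. The labels do not say whether libraries 1 and 2 came from separate mice, so the p-values describe spread among these samples only, and that spread may be technical. In such bulk libraries, fewer cells with a bound site and less binding per cell cannot be told apart. The authors had divided the sites into a common, a cTreg-specific and an eTreg-specific class (eTreg, effector Treg). Coordinates are those of the deposited files, taken as mm10, and most sites span 400 bp.

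Foxp3 is the forkhead transcription factor that defines Treg cells, and it binds promoters and enhancers of many genes of T cell receptor signalling. Signals from that receptor run through tyrosine kinases, MAP kinases, calcium and calcineurin, and phosphoinositides, and each of these branches has phosphatases that end it, set its strength or, for calcineurin and CD45, carry it forward. Many Dusp proteins remove phosphates from MAP kinases, and most Ptp proteins remove them from phosphotyrosine. Ppp enzymes remove phosphates from serine and threonine, and Inpp enzymes from inositol lipids and inositol phosphates.

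Of the 91 sites, 78 had a gene with a listed RefSeq promoter window, and the others could not be placed against one. The window of the own gene was overlapped by 4 sites, which belonged to Dusp6, Dusp23, Ppp1r8 and Dusp12. Their promoters are shown because 3 of them, all but Dusp12, had reads in all 8 libraries. Reads in all 8 were present at 6 phosphatase sites (6.59%), against 17.6% of all sites with a gene. Each is the 250 bases before the start site on the gene's strand (RefSeq, GRCm38.p6), with CG pairs in capitals. For Dusp6 the stretch lies at chr10:99262981-99263230 (plus strand), for Dusp23 at chr1:172632975-172633224 (minus strand), for Ppp1r8 at chr4:132843170-132843419 (minus strand) and for Dusp12 at chr1:170885541-170885790 (minus strand). Where RefSeq gave more than 1 start for Ppp1r8, the window that the site covered most is shown.
Dusp6: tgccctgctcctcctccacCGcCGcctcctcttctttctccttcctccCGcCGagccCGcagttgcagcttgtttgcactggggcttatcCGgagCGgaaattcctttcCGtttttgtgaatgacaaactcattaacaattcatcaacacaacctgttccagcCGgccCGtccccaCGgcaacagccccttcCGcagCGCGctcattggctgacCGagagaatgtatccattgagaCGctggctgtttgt
Dusp23: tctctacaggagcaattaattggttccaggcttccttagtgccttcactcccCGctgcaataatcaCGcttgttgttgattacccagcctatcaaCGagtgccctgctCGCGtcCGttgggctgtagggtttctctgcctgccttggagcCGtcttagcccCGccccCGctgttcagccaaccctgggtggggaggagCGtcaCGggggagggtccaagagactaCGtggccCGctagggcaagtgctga
Ppp1r8: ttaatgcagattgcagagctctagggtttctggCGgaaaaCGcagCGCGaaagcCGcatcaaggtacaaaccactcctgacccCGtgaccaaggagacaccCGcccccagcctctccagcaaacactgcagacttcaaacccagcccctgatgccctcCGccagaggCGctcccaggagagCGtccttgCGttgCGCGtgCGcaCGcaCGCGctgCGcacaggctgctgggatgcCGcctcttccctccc
Dusp12: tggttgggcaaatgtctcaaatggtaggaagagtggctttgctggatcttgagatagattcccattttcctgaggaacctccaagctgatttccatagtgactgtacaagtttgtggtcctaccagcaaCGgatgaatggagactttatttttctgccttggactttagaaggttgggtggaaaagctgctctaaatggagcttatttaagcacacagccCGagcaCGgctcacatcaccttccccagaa
The first 3 held 16, 13 and 19 CG pairs and had GC contents of 56.4%, 59.2% and 63.2%. The Dusp12 stretch held 3 CG pairs at 46% GC. Only part of it lies in the site, which ends at chr1:170885660, whereas the first 3 stretches lie wholly inside their sites. Over all 32851 RefSeq promoter windows the medians were 6 CG pairs and 52.4% GC for the same 250 bases. Windows of 300 bases, reaching 50 bases past the start, were searched on both strands for a forkhead motif (TGTTTAC), an AP-1 motif (TGANTCA) and a RUNX motif (TGTGGTT), counted separately. None of the 4 windows held any of these letters. Across 37 windows of 29 of the 34 phosphatase genes, the forkhead and RUNX letters matched in 0 windows, and the AP-1 letters in 1 (2.70%), at Ptpre. The shares over all windows were 3.65%, 5.27% and 7.81% for the forkhead, RUNX and AP-1 letters.

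Most phosphatase sites lay inside genes. Of 91 sites, 69 (75.8%, exact 95% interval 65.7 to 84.2%) were inside a gene body, against 67.3% of all sites with a gene. Within 1 kb of a listed start of their own gene lay 4 (4.40%, 1.21 to 10.9%), against 10.6% of all sites with a gene. Sites whose gene had no listed start stay in both shares as not near one, so these shares may be too low. A start was listed for 78 of the 91 phosphatase sites and for 4059 of all 5210 sites with a gene. The median distance to the gene's own start was 39520 bp over the 78 phosphatase sites whose gene has a listed start, and 22705 bp over 4059 sites of all genes. Inpp4b, with 18 sites deep inside a long gene, weighed on these values. Without it, 51 of 73 sites (69.9%) were inside a gene body and the median distance was 24480.5 bp over 60 sites, an alternative chosen after the data were seen. These intervals cover counting error over sites, and sites of 1 gene are not independent.

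By class, 66 sites were common (72.5%, exact 95% interval 62.2 to 81.4%), 11 cTreg-specific (12.1%, 6.19 to 20.6%) and 14 eTreg-specific (15.4%, 8.67 to 24.5%). All sites with a gene divided into 70.4%, 12.7% and 16.8%, each inside the interval for the phosphatase sites. Common sites occurred at 29 of the 34 genes (85.3%), cTreg-specific sites at 7 (20.6%) and eTreg-specific sites at 10 (29.4%). Over all 2760 genes with a site these shares were 79.3%, 17.4% and 23.6%.

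**Figure D1:**
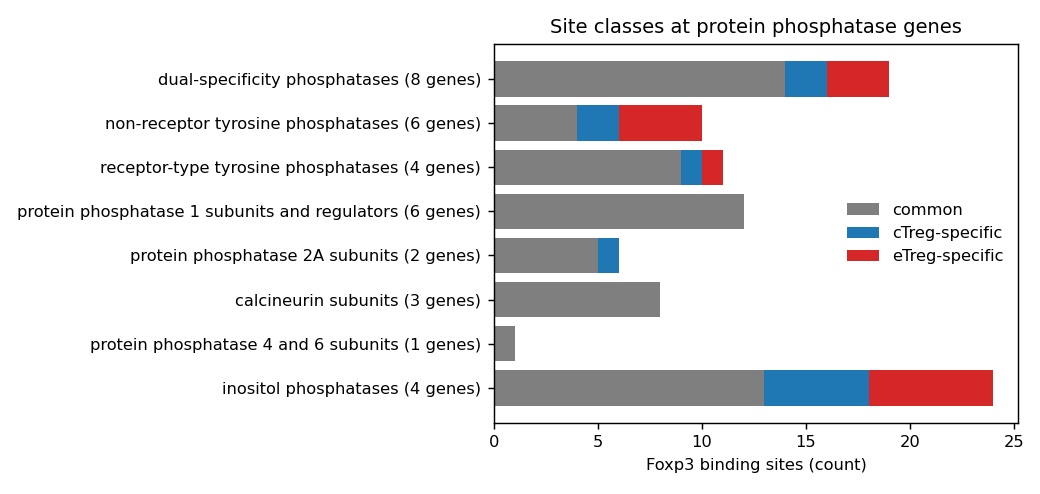
Number of Foxp3 binding sites (horizontal axis, count) at each phosphatase family (rows, with the number of genes that have a site), coloured by the authors' site class. The 24 inositol phosphatase sites hold all 3 classes, while the 12 protein phosphatase 1 and 8 calcineurin sites are all common.

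The families differed in how many of their genes had a site and in the classes of those sites. Dual-specificity phosphatases had 19 sites at 8 of 24 genes, 14 of them common, 2 cTreg-specific and 3 eTreg-specific. Non-receptor tyrosine phosphatases had 10 sites at 6 of 16 genes, of which 4 (40%) were eTreg-specific, 3 of these at Ptpn13 alone. Receptor-type tyrosine phosphatases had 11 sites at 4 of 20 genes, 9 of them common. Subunits of protein phosphatase 1 had 12 sites at 6 of 45 genes, all common. Protein phosphatase 2A subunits had 6 sites at 2 of 16 genes, and subunits of calcineurin 8 sites at 3 of 5 genes, all common. The subunits of protein phosphatases 4 and 6 had 1 site at 1 of 10 genes. Inositol phosphatases had 24 sites at 4 of 11 genes, namely 13 common, 5 cTreg-specific and 6 eTreg-specific.

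Sites were spread unevenly over the genes. A single site was listed at 18 of the 34 genes, and 9 genes had 4 or more. Inpp4b, which codes for a phosphatase that removes a phosphate from a phosphoinositide made downstream of PI3K, had 18 sites, or 19.8% of all phosphatase sites. Ptprc, the gene of the leukocyte phosphatase CD45, had 7 sites, all common. Dusp6, Ppp1r12a and Ppp2r5c had 5 each, and Dusp4, Dusp5, Ppp3ca and Ptpn13 had 4 each. Without Inpp4b, 73 sites were left, of which 56 were common, 6 cTreg-specific and 11 eTreg-specific.

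Signal is given as the deposited normalised read count per site and library, which the file names call spike-in normalised. In each of the 3 files, however, the library factors equalled median-of-ratios size factors computed from that file's own sites, with differences of at most 6.87e-08 percent. Factors of this kind rest on sites with reads in all 8 libraries, here 815 of 3847 common, 58 of 727 cTreg-specific and 65 of 947 eTreg-specific sites. They centre the ratios between libraries at those sites, so a change shared by most of those sites would not show in the differences below. Recovered reads over all deposited sites ranged from 111274 to 394196 per library, and those at the phosphatase sites from 1546 to 4820. Coverage of the phosphatase sites differed between library numbers. Libraries numbered 1 had no reads at 5 to 30 of the 91 sites, and libraries numbered 2 at 47 to 67. For the Foxp3 antibody the counts of sites without reads were 5 and 47 in WT and 18 and 52 in R397W. Both R397W Foxp3 libraries lacked reads at 11 of the 91 sites and at 725 of all 5521. Both WT IgG libraries lacked them at 25 of the 91 and at 1333 of all 5521. Over all 5521 sites the libraries numbered 2 also had the larger share of sites without reads, so many replicate pairs below combine a signal with a 0. Treg marker genes carried 22 sites at 4 of 4 genes, and 4 marker genes each of B cells, of myeloid cells and of CD8 T and NK cells had 0. A list of Foxp3 sites cannot show which other cells a sort held, so the labelled cell type was not checked here.

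The first question was where Foxp3 signal stood above IgG in WT cells. At 72 of the 91 sites (79.1%) the fitted WT Foxp3 value was above the WT IgG value, against 74.3% of all 5521 sites. Both WT Foxp3 libraries lay above both WT IgG libraries at 19 sites (20.9%, background 19.5%) and below both at 2 (2.2%, background 4.84%). The median difference was 1.56 on the log2(normalised read count + 1) scale, against 1.27 over all sites. No phosphatase site passed limma's test at an adjusted p of 0.05, where 0.0725% of all sites did. With a block for the Treg sample name that the titles give to a Foxp3 and an IgG library together, the calls over all sites went from 4 to 0, and phosphatase calls were 0. The same count was 0 with edgeR (background 0%) and with DESeq2 (background 0%). At an unadjusted p under 0.05 limma found 1 phosphatase site, the Dusp6 promoter site (background 2.57%). Without WT Foxp3 library 2, limma called 5 phosphatase sites higher (background 3.42%), at Inpp4b (3 sites), Ppp1cb and Ptpn13, and all 5 had 0 reads in both WT IgG libraries. The median difference was 0 without WT Foxp3 library 1.

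In R397W cells the same comparison was close to balanced. The fitted R397W Foxp3 value was above R397W IgG at 43 sites (47.3%, background 51.3%). Both Foxp3 libraries were above both IgG libraries at 11 sites (12.1%, background 10.4%) and below both at 6 (6.59%, background 7.84%). The median difference was 0, against 0.05 over all sites. No phosphatase site passed limma's adjusted test (background 0%), edgeR's or DESeq2's. At an unadjusted p under 0.05 limma found 1 (background 1.47%), a Ppp1r12a site lower with Foxp3 than with IgG.

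**Figure D2:**
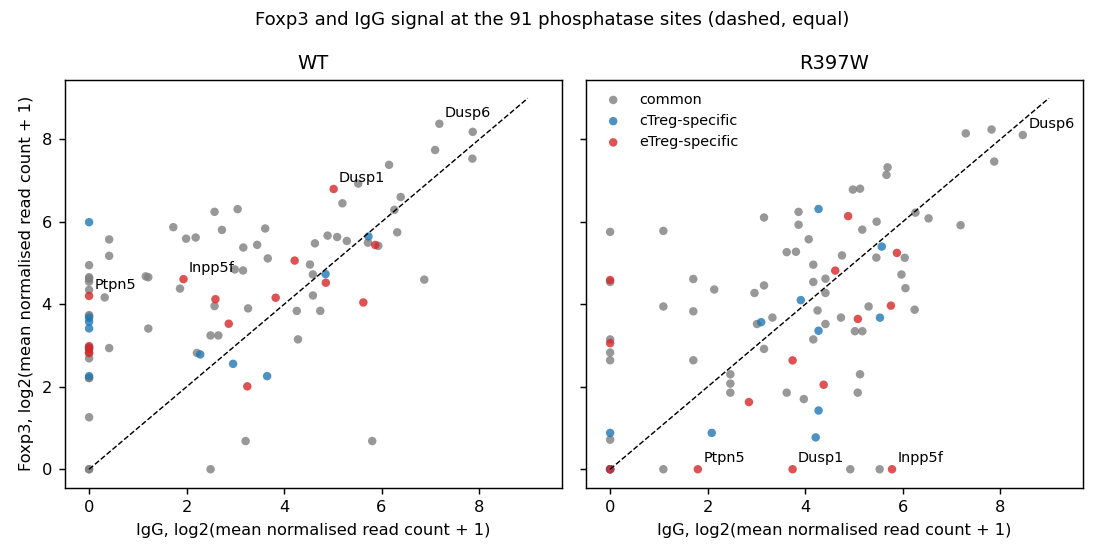
Mean Foxp3 signal (vertical axis) against mean IgG signal (horizontal axis) at the 91 phosphatase sites in WT (left) and R397W (right) cells, both as log2(mean normalised read count + 1), 2 libraries per mean, with colour for site class and a dashed line of equal values. In WT most points lie above the line, and in R397W the points scatter on both sides. Of the 91 sites, 11 lie at 0 on the R397W Foxp3 axis, among them Dusp1, Ptpn5 and Inpp5f.

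The second question was whether R397W changed Foxp3 signal at these sites. The fitted difference between R397W and WT Foxp3 libraries was below 0 at 53 sites (58.2%, background 60.4%) and above 0 at 37 (40.7%, background 38.5%). The R397W pair lay wholly below the WT pair at 10 sites (11%, background 12.6%) and wholly above at 6 (6.59%, background 6.43%). The median difference was -0.25 (log2), against -0.39 over all sites, so the shares and the median at phosphatase genes were near those of all sites. No phosphatase site passed limma's test (0 of 91; background 0%), and 0 reached an unadjusted p under 0.05 in limma (background 0.326%). With edgeR 0 passed. With DESeq2 1 site passed (background 0.11%), at Dusp1.

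The calls and the median depended on single libraries. Without WT Foxp3 library 2, limma called 8 phosphatase sites, all lower in R397W (8.79%, background 11.6%), at Inpp4b (2 sites), Ptpn13 (2 sites), Inpp5d, Inpp5f, Ppp1cb and Ptpn5. All 8, and all 643 sites called over the whole data in that fit, had 0 reads in both R397W Foxp3 libraries. The median difference was -2.16 without WT Foxp3 library 2, -1.86 without R397W library 1, 0.39 without R397W library 2 and 0.82 without WT library 1. With 2 libraries against 2, an exact permutation test of a single site cannot give a p below 0.33.

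**Figure D3:**
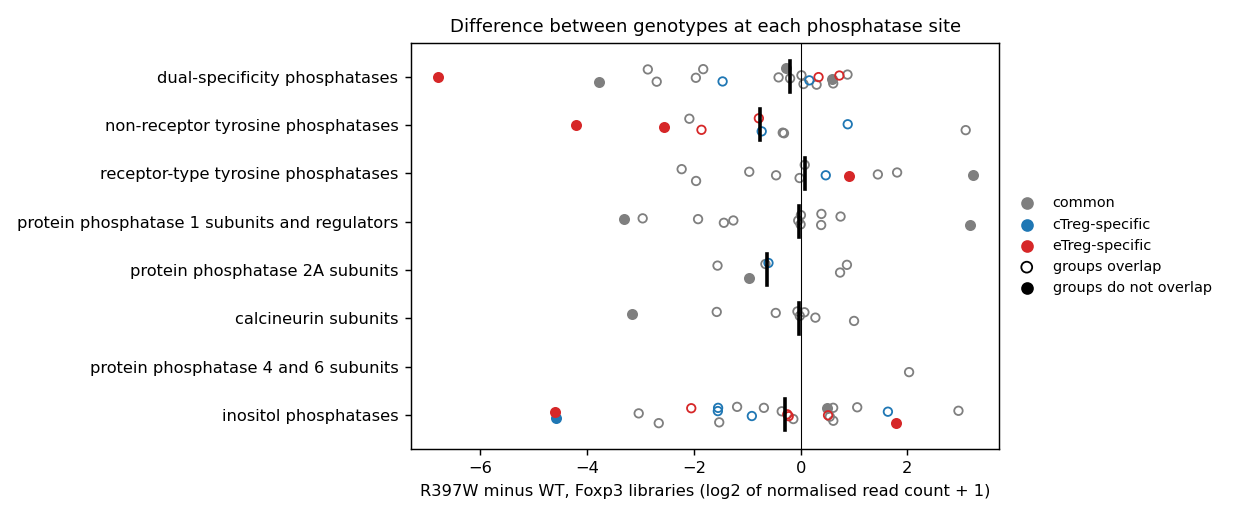
Fitted difference between R397W and WT Foxp3 libraries (horizontal axis, log2 of normalised read count + 1) at each phosphatase site, by family (rows), with colour for site class and a bar for the family median. Filled points are the 16 sites whose WT and R397W pairs do not overlap, 10 to the left of 0 and 6 to the right.

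Among the MAP kinase phosphatases, Dusp6 had the site with the highest WT Foxp3 mean of all 91. Dusp6 is a cytoplasmic phosphatase of ERK. Its promoter site (chr10:99262853-99263253, common, centre 178 bp before the start, sequence above) had 308 and 357 normalised reads in the WT Foxp3 libraries, 249 and 301 in R397W, against IgG values of 196 and 93.5 (WT) and 317 and 389 (R397W). Both WT Foxp3 libraries were above both WT IgG libraries, and both R397W Foxp3 libraries were below both R397W IgG libraries. The R397W pair (275 ± 36.4, SD, n = 2) was wholly below the WT pair (333 ± 34.7), with a log2 difference of -0.28 (SE 0.41) that did not pass limma's test (adjusted p = 1). The WT Foxp3 minus IgG difference was 1.29 (SE 0.50), with an unadjusted p of 0.0095 and an adjusted limma p of 0.991. The IgG libraries themselves differed by 1.37 (SE 0.50) between genotypes at this site, with an unadjusted p of 0.00582 and an adjusted limma p of 1. The difference between genotypes in Foxp3 minus IgG was -1.64 (SE 0.70), with an unadjusted p of 0.0192 and an adjusted limma p of 1.00.

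The other 4 Dusp6 sites were weaker and lay within 21761 bp of the gene, 3 common and 1 cTreg-specific. At the site 1141 bp beyond the gene end (chr10:99268430-99268830) the counts were 20.6 and 75.9 in WT Foxp3, 7.88 and 0 in R397W Foxp3, against IgG values of 6.61 and 0.498 (WT) and 67.9 and 0 (R397W). There too the R397W Foxp3 pair was wholly below the WT pair (log2 difference -3.77). At all 4 common Dusp6 sites both WT Foxp3 libraries exceeded both WT IgG libraries (background 19.5%). All 5 Dusp6 sites had a fitted R397W minus WT difference below 0 (background 60.4%), or 4 of 5 without WT Foxp3 library 1 or R397W Foxp3 library 2. Sites of 1 gene share their libraries and are not independent, so such counts per gene, here and below, were not tested. Sites below and above 0 were 12 and 6 at Inpp4b, 4 and 3 at Ptprc and 0 and 4 at Ppp1r12a. They were 3 and 2 at Ppp2r5c and 2 and 2 at Ppp3ca. Summed over the 4 common sites, the signal was 477 and 467 in WT Foxp3, 336 and 301 in R397W Foxp3, against IgG values of 217 and 94.0 (WT) and 464 and 400.3 (R397W). The sum was thus lower in both R397W Foxp3 libraries than in both WT Foxp3 libraries, and the R397W Foxp3 libraries were also below the R397W IgG libraries. Most of the sum came from the promoter site in every library, and R397W Foxp3 library 2 had reads at only 1 of the 4 sites.

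Dusp1 codes for a nuclear phosphatase of p38, JNK and ERK that is induced early after stimulation. Its 1 site is eTreg-specific and lies 24331 bp upstream of the start (chr17:26532603-26533003). The counts were 105 and 116 in WT Foxp3, 0 and 0 in R397W Foxp3, against IgG values of 62.2 and 0.544 (WT) and 24.8 and 0 (R397W). The recovered reads behind them were 121 and 302 in WT Foxp3, and 0 in both R397W Foxp3 libraries, where 3 reads would correspond to 6.28 and 2.34 normalised reads. Against that floor per library the mean was at least 25.6-fold lower in R397W than the WT mean of 110.4 ± 7.87 (SD, n = 2). The fitted log2 difference was -6.80 (SE 3.04), lower in 2 of 2 R397W libraries. It had the smallest p of any phosphatase site in this comparison, yet limma's adjusted p was 1 and its unadjusted p 0.0637. On the recovered reads, the adjusted p was 0.433 with edgeR and 0.00933 with DESeq2. Over all alternatives the adjusted p of this site ran from 0.00933 to 1.

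**Figure D4:**
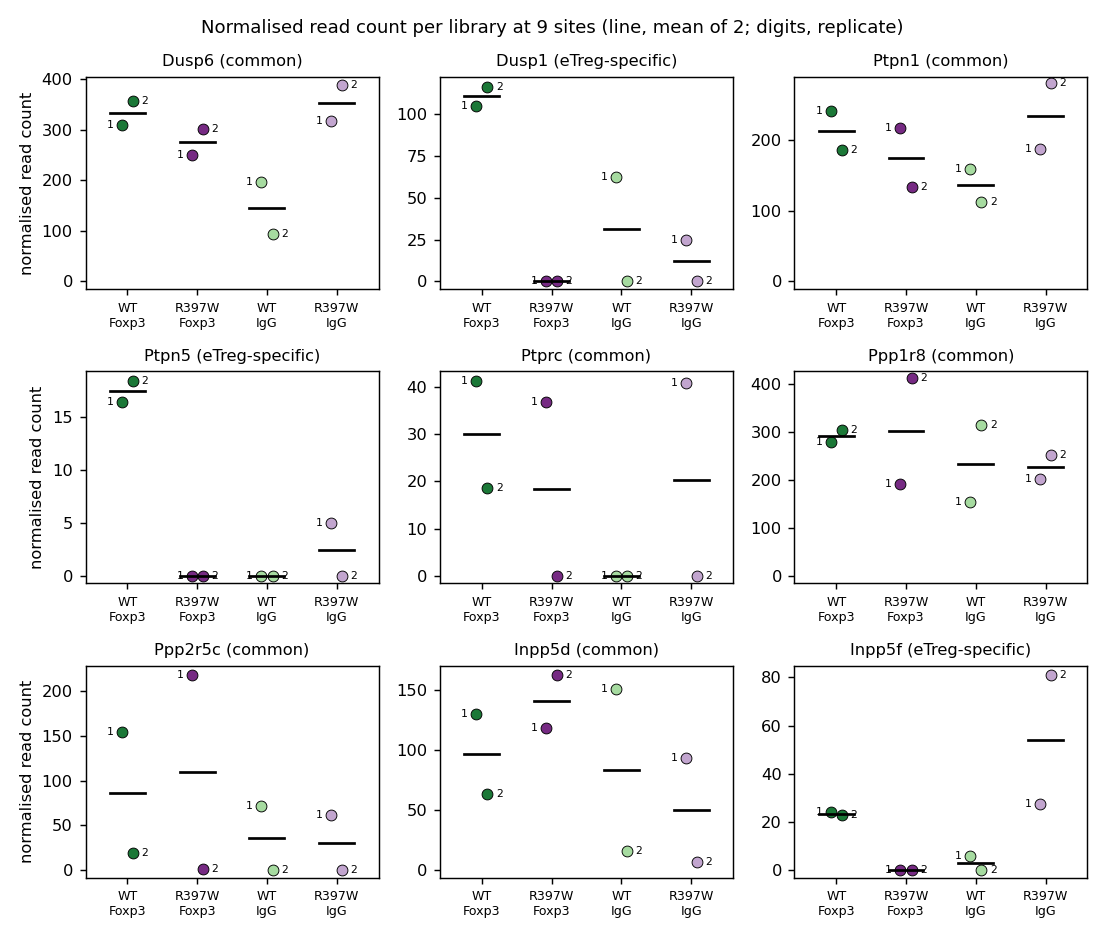
Normalised read count (vertical axis, a scale of its own in each panel) in each of the 8 libraries at 9 phosphatase sites, with a line for the mean of 2 libraries and digits for the replicate number. Dusp1, Ptpn5 and Inpp5f have signal in both WT Foxp3 libraries and 0 in both R397W Foxp3 libraries. Such a 0 in both R397W Foxp3 libraries was found at 11 of the 91 sites and at 725 of all 5521. At Dusp6, Ptpn1, Ppp1r8 and Inpp5d all 8 libraries have signal.

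At Dusp4 and Dusp5, which code for nuclear MAP kinase phosphatases, libraries numbered 1 had the higher common-site sum in every group. Both genes had 3 common sites and 1 eTreg-specific site. Summed over the common sites, Dusp4 had 207 and 31.7 in WT Foxp3, 173 and 148 in R397W Foxp3, against IgG values of 98.5 and 0 (WT) and 104 and 9.55 (R397W). The R397W pair lay inside the WT range, although all 4 Dusp4 sites had a fitted difference above 0 (background 38.5%). Without WT Foxp3 library 2, all 4 were below 0. The same sum at Dusp5 was 169 and 17.2 in WT Foxp3, 76.1 and 0 in R397W Foxp3, against IgG values of 64.8 and 0.498 (WT) and 92.8 and 56.6 (R397W). The genotypes overlapped there, with 2 of 4 sites on each side of 0.

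Of the other genes in the family, Dusp23, a small atypical phosphatase, had a promoter site (chr1:172632957-172633357, common, centre 183 bp before the start) with signal in all 8 libraries. Its counts were 194 and 175 in WT Foxp3, 228 and 337 in R397W Foxp3, against IgG values of 228 and 236 (WT) and 204 and 109 (R397W). The R397W Foxp3 pair was wholly above the WT pair (283 ± 76.8 against 185 ± 13.4, SD, n = 2), with a log2 difference of 0.59 (SE 0.48) that did not pass limma's test (adjusted p = 1). The WT Foxp3 values lay below both WT IgG values, and the R397W Foxp3 values above both R397W IgG values. At the Dusp12 promoter site (chr1:170885260-170885660, common), 80 bp downstream of the start, counts were 25.5 and 58.2 in WT Foxp3, 15.8 and 94.7 in R397W Foxp3, against IgG values of 120.3 and 0 (WT) and 29.4 and 40.7 (R397W). The groups overlapped and the log2 difference was 0.02.

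Among the non-receptor tyrosine phosphatases, Ptpn1 codes for PTP1B, which acts on cytokine receptor-linked JAK kinases and on the insulin receptor. Its common site inside the gene (chr2:167942773-167943173) had 241 and 186 in WT Foxp3, 218 and 133 in R397W Foxp3, against IgG values of 159 and 113 (WT) and 188 and 281 (R397W). The genotypes overlapped (log2 difference -0.31, SE 0.54), and the WT Foxp3 libraries lay above both WT IgG libraries. Its cTreg-specific site (chr2:167839500-167839900) lies 91050 bp upstream of the gene body and is the farthest phosphatase site within the 100 kb limit. It had 33.7 and 91.8 in WT Foxp3, 6.74 and 150.3 in R397W Foxp3, against IgG values of 0 and 0 (WT) and 36.7 and 0 (R397W). Its WT Foxp3 mean was at least 27.9-fold above the floor of 3 reads per WT IgG library, the difference for which the site was picked. Between genotypes its libraries overlapped, and the fitted difference of -0.73 turned to 0.33 with edgeR or DESeq2.

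Ptpn5 codes for STEP, a phosphatase known mainly from brain. Its 1 site is eTreg-specific and inside the gene (chr7:47111694-47112094). The counts were 16.5 and 18.4 in WT Foxp3, 0 and 0 in R397W Foxp3, against IgG values of 0 and 0 (WT) and 4.96 and 0 (R397W). The WT Foxp3 mean of 17.4 ± 1.39 (SD, n = 2) was at least 9.92-fold above WT IgG and at least 4.04-fold above R397W Foxp3, both against the floor of 3 reads per library. The site was picked for both differences. The fitted log2 difference of R397W minus WT was -4.20 (SE 2.75) with an adjusted limma p of 1, and -4.13 without WT Foxp3 library 2. Ptpn13, a large scaffold-like phosphatase, had 3 eTreg-specific sites and 1 common site, and all 4 fitted differences were below 0 (background 60.4%), but 1 of 4 without WT Foxp3 library 1. At 1 of them the R397W pair did not overlap the WT pair, with 19.9 and 11.1 in WT Foxp3 and 6.28 and 0 in R397W Foxp3, beside 11.9 and 84.9 in WT IgG.

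Among the receptor-type tyrosine phosphatases, Ptprc codes for CD45, which removes the inhibitory phosphate of Lck and so permits T cell receptor signalling. Its 7 common sites spanned 76.2 kb inside the gene. Summed over them, the signal was 272 and 51.7 in WT Foxp3, 218 and 78.0 in R397W Foxp3, against IgG values of 47.6 and 15.9 (WT) and 161 and 0 (R397W). Both WT Foxp3 libraries were above both WT IgG libraries, and the genotypes overlapped. The site with the largest WT Foxp3 minus IgG difference (chr1:138134305-138134705) had 41.2 and 18.6 in WT Foxp3, 36.8 and 0 in R397W Foxp3, against IgG values of 0 and 0 (WT) and 40.7 and 0 (R397W). There the WT Foxp3 mean was at least 17.2-fold above the WT IgG floor of 3 reads per library, the difference for which the site was picked. R397W Foxp3 and IgG, which played no part in that choice, overlapped.

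The other receptor-type genes had 4 sites in all. At the Ptpre site (chr7:135542344-135542744, common, inside the gene) counts were 35.2 and 0 in WT Foxp3, 84.0 and 36.1 in R397W Foxp3, against IgG values of 46.3 and 0 (WT) and 27.2 and 0 (R397W). Both R397W Foxp3 libraries were above both WT libraries and above both R397W IgG libraries, with a log2 difference of 3.22 (SE 2.55) that did not pass limma's test (adjusted p = 1). Ptprn, which codes for a receptor-type protein of secretory granules, had an eTreg-specific site (chr1:75248345-75248745) with 20.8 and 64.1 in WT Foxp3, 71.2 and 67.9 in R397W Foxp3, against IgG values of 82.4 and 32.6 (WT) and 57.0 and 0 (R397W). The R397W pair again lay above the WT pair, by 0.91 (SE 1.08) without passing limma's test, and the WT IgG and WT Foxp3 values overlapped. The common Ptprk site (chr10:28593805-28594205) had the highest WT Foxp3 mean of the receptor-type group, across classes that were scaled separately. That mean rested on library 1 alone, with 93.4 and 0 in WT Foxp3 against 5.25 and 0 in R397W Foxp3. The IgG values there were 0.661 and 0 (WT) and 65.6 and 0 (R397W).

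For protein phosphatase 1, Ppp1r8 codes for a nuclear inhibitory subunit. The Ppp1r8 promoter site (chr4:132843089-132843489, common, centre 120 bp before the start) had 278 and 303 in WT Foxp3, 192 and 412 in R397W Foxp3, against IgG values of 153 and 313 (WT) and 201 and 250.1 (R397W). All groups overlapped, with means of 290.2 ± 17.6 in WT and 302 ± 156 in R397W Foxp3 (SD, n = 2) and a log2 difference of -0.04 (SE 0.51). Ppp1r12a codes for the subunit that targets the enzyme to myosin, and its 5 common sites lay within 12.5 kb inside the gene. The strongest of them in R397W (chr10:108264654-108265054) had 17.0 and 0 in WT Foxp3, 42.0 and 33.5 in R397W Foxp3, against IgG values of 9.25 and 0 (WT) and 0 and 26.1 (R397W). The R397W pair was wholly above the WT pair, by 3.18 (SE 2.96), which did not pass limma's test. Summed over the 5 sites, R397W IgG (61.1 and 96.1) overlapped R397W Foxp3 (70.9 and 45.7).

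Protein phosphatase 2A was represented by Ppp2r5c, a regulatory subunit, and Ppp2cb, a catalytic one. The Ppp2r5c site with the most WT Foxp3 signal (chr12:110504895-110505295, common) had 154 and 19.1 in WT Foxp3, 218 and 0.644 in R397W Foxp3, against IgG values of 71.4 and 0 (WT) and 61.1 and 0 (R397W). The genotypes overlapped and the pairs spread more than the groups differed. The 1 Ppp2cb site, singled out after its values were seen, lies 65 bp outside the gene body and had reads in all 8 libraries. Its counts were 36.4 and 63.3 in WT Foxp3, 34.1 and 16.8 in R397W Foxp3, against IgG values of 33.0 and 24.4 (WT) and 88.3 and 35.6 (R397W). The R397W Foxp3 pair was below the WT pair by -0.97 on the log2 scale.

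Calcineurin, the calcium-dependent phosphatase that activates NFAT, had sites at the genes of the catalytic subunits Ppp3ca and Ppp3cc and of the regulatory subunit Ppp3r1. At 0 of the 8 calcineurin sites did both WT Foxp3 libraries exceed both WT IgG libraries (background 19.5%), and the median WT Foxp3 minus IgG difference was 0.41 (log2), against 1.56 over all phosphatase sites and 1.27 over all 5521 sites. With 8 sites, this share was not tested against the background. The Ppp3r1 site, which had the highest WT Foxp3 mean of the group (chr11:17160337-17160737), held 91.0 and 0 in WT Foxp3, 2.63 and 23.8 in R397W Foxp3, against IgG values of 0 and 76.1 (WT) and 4.53 and 0 (R397W). Each of the 4 groups there held 1 library at 2.63 or less. Summed over 4 common sites, Ppp3ca had 188 and 18.2 in WT Foxp3, 144 and 0 in R397W Foxp3, against IgG values of 86.6 and 13.9 (WT) and 145 and 8.27 (R397W), with all groups overlapping. The only site of the protein phosphatase 4 and 6 group, in Ppp4r3b (chr11:29212077-29212477), had 0 and 0 in WT Foxp3, 15.8 and 0 in R397W Foxp3, against IgG values of 9.25 and 0 (WT) and 0 and 0 (R397W).

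Inpp4b was the phosphatase gene with the most sites. The gene is 792 kb long, and its 18 sites (10 common, 5 cTreg-specific and 3 eTreg-specific) covered 507 kb of it, from 149 to 656 kb downstream of the nearest start. Only 3 genes in the data had more sites, and the 17 genes with a site that are as long as Inpp4b or longer, itself included, had a median of 1. Summed over the common sites, the signal was 517 and 87.5 in WT Foxp3, 281 and 197 in R397W Foxp3, against IgG values of 80.6 and 30.4 (WT) and 222 and 45.8 (R397W). Both WT Foxp3 libraries were above both WT IgG libraries, the R397W Foxp3 and IgG values overlapped, and the genotypes overlapped (302 ± 303 and 239 ± 59.2, SD, n = 2). Reads were present at all 10 common sites in WT Foxp3 library 1 and at 5 in library 2.

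Single Inpp4b sites went in both directions. At the cTreg-specific site chr8:81782834-81783234 counts were 53.9 and 44.3 in WT Foxp3, 3.37 and 0 in R397W Foxp3, against IgG values of 16.3 and 88.0 (WT) and 36.7 and 0 (R397W). The R397W Foxp3 mean of 1.69 ± 2.38 was below the WT mean of 49.1 ± 6.74 (SD, n = 2), a log2 difference of -4.58 (SE 3.15) that did not pass limma's test, while the WT IgG pair spanned the WT Foxp3 pair. At the eTreg-specific site chr8:81611712-81612112 the order was the other way, with 3.46 and 9.60 in WT Foxp3, 18.9 and 27.3 in R397W Foxp3 and 0 in all 4 IgG libraries. That difference was 1.79 (SE 2.75) and did not pass limma's test. The common site chr8:81766054-81766454, picked for its WT Foxp3 minus IgG difference, had 106 and 44.2 in WT Foxp3 and 70.9 and 0 in R397W Foxp3. The IgG values were 9.91 and 0 (WT) and 52.1 and 0 (R397W), so that the WT Foxp3 pair stood above WT IgG and the genotypes overlapped.

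**Figure D5:**
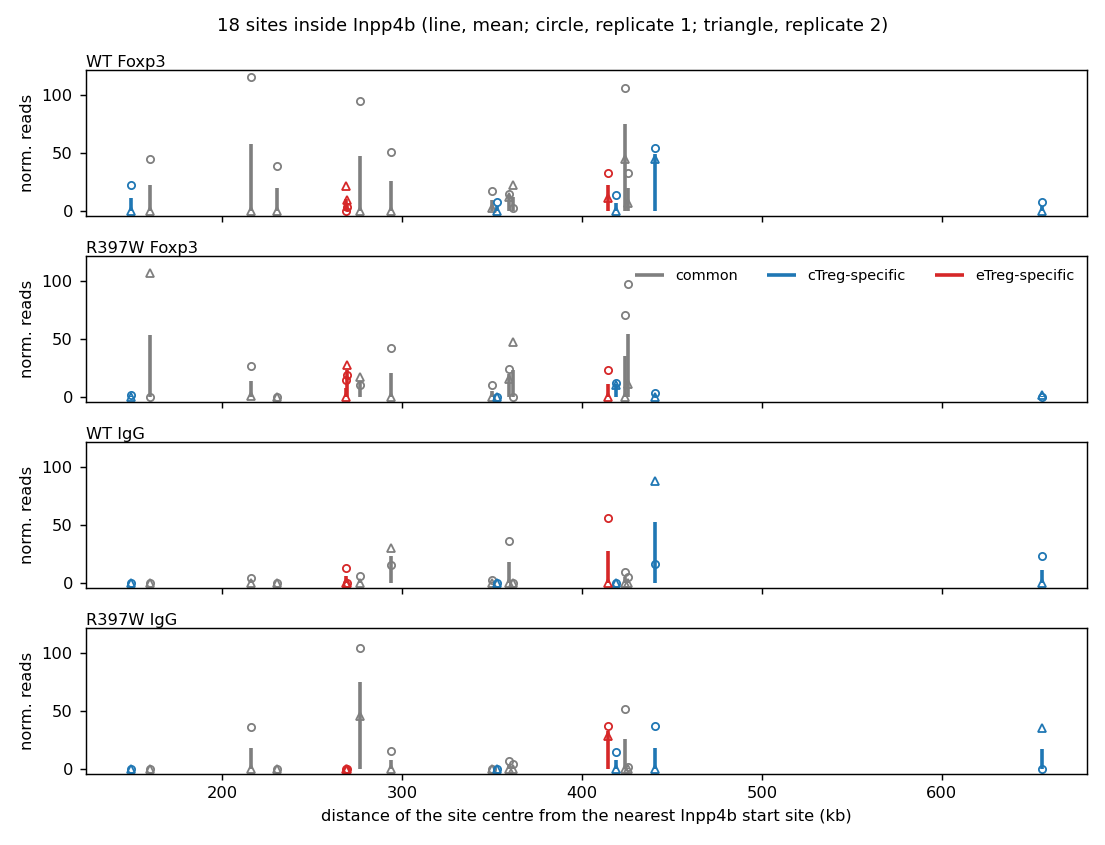
Normalised read count (vertical axis) at the 18 Inpp4b sites against distance of the site centre from the nearest Inpp4b start (horizontal axis, kb), 1 panel per group, with a line for the mean, a circle for replicate 1 and a triangle for replicate 2, coloured by site class. Sites of the 3 classes are interspersed between 149 and 656 kb, and most circles lie above the triangles.

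The other inositol phosphatases included Inpp5d, which codes for SHIP1, a phosphatase of the PI3K product in blood cells. Its strongest site (chr1:87637044-87637444, common) had 129.8 and 62.9 in WT Foxp3, 118 and 162 in R397W Foxp3, against IgG values of 151 and 15.4 (WT) and 92.8 and 7.0 (R397W). Both R397W Foxp3 libraries were above both R397W IgG libraries, and the genotypes overlapped (log2 difference 0.61, SE 0.71). Inpp5f, which codes for a phosphoinositide phosphatase of the endocytic pathway, had 1 eTreg-specific site (chr7:128633246-128633646). Its counts were 24.3 and 22.6 in WT Foxp3, 0 and 0 in R397W Foxp3, against IgG values of 5.66 and 0 (WT) and 27.3 and 80.9 (R397W). The R397W Foxp3 mean was at least 5.44-fold lower than the WT mean of 23.5 ± 1.13 (SD, n = 2), against the floor of 3 reads per library. The fitted log2 difference was -4.61 (SE 3.06) with an adjusted limma p of 1, and -4.66 without WT Foxp3 library 2. Both R397W IgG libraries were above both WT Foxp3 libraries at this site.

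By family, the median R397W minus WT difference in Foxp3 libraries was -0.20 (log2) at Dusp, -0.76 at Ptpn, 0.08 at Ptpr, -0.02 at protein phosphatase 1, -0.63 at protein phosphatase 2A, -0.04 at calcineurin and -0.30 at Inpp sites. By class, the phosphatase medians were -0.10 (common), -0.73 (cTreg-specific) and -0.52 (eTreg-specific). The corresponding medians over all sites of the 3 classes were -0.33, -0.35 and -0.79. The 3 classes were deposited as separate files with separate scaling, so levels across classes are not on 1 scale. No family or class median was tested, and the pooled SD between replicates of the mean log2 value over the phosphatase sites was 1.62.

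The share of a library's reads that fell on phosphatase sites, which needs no scaling between libraries, overlapped between the groups. It was 1.52 and 1.22% in WT Foxp3, and 1.39 and 1.39% in R397W Foxp3. With IgG it was 1.31 and 1.13% (WT) and 1.51 and 1.19% (R397W), where the sites are 1.65% of all sites. Within the eTreg-specific class the shares were 1.01 and 1.49% in WT Foxp3 and 1.10 and 0.497% in R397W Foxp3, which overlap.

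The IgG libraries were compared between genotypes in the same way. R397W IgG lay wholly above WT IgG at 9 phosphatase sites (9.89%, background 11.3%) and wholly below at 2 (2.2%, background 5.51%), and the median difference was 0.53 against 0.33 over all sites. No phosphatase site passed limma's adjusted test in the IgG libraries (background 0.0362%), and 0 passed with edgeR or DESeq2. At an unadjusted p under 0.05 limma found 2 (background 2.25%), both higher in R397W. The difference between genotypes in Foxp3 minus IgG had a median of -1.43 against -1.02 over all sites, and 0 phosphatase sites passed limma's adjusted test (background 0%). With edgeR and DESeq2 0 passed. At an unadjusted p under 0.05 limma found 1, the Dusp6 promoter site (background 1.65%). Without WT Foxp3 library 2, limma called 4 phosphatase sites lower (background 3.3%), at Inpp4b (2 sites), Ppp1cb and Ptpn13, each with 0 reads in both R397W Foxp3 and both WT IgG libraries. Without WT Foxp3 library 1 that median was 0.22.

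Genes that act in the same pathways were counted for comparison, from lists of kinases, adaptors and further phosphatases. MAP kinases and their kinases had 25 sites at 13 of 31 genes (16 common, 5 cTreg-specific and 4 eTreg-specific), with a median R397W minus WT difference of -1.35 (log2). T cell receptor kinases, adaptors and calcineurin targets had 53 sites at 16 of 21 genes, with a median of -0.36. Genes of the PI3K pathway had 28 sites at 11 of 19 genes, with a median of -0.18. Phosphatases outside the family names had 25 sites at 10 of 32 genes, with a median of -0.59. No site of these 4 lists passed limma's adjusted test between genotypes (background 0%), and these medians were not tested against that of the phosphatase sites.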

How the data were processed

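The authors deposited, in 3 files (1 per site class), the normalised signal of each library at each Foxp3 site; per the file headers the columns are the 8 libraries. DiffBind 3.12.0, Bowtie2 2.5.2 and the builds dm6 and mm10 appear, without roles, in the submitters' processing notes. The site caller is not stated in those notes. All nonzero values of a library in a file (100%, tolerance 0.01 reads) were whole multiples of its smallest one, so whole reads were recovered. Each file was scaled by its own median-of-ratios factors (815 common, 58 cTreg-specific and 65 eTreg-specific sites with reads in all 8 libraries), although the file names call the values spike-in normalised.

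Groups were compared mainly with limma 3.58.1 (R 4.3.3), two-sided and with trended empirical Bayes moderation, applied to log2(normalised read count + 1) and fitted on all 5521 sites with no filter, with Benjamini-Hochberg adjustment and a threshold of 0.05. The genotype comparison used the 4 Foxp3 libraries, and the others used all 8. Fold changes on that scale understate weak sites. edgeR 4.0.16 (quasi-likelihood) and DESeq2 1.42.0 ran on recovered reads with the deposited factors. Further alternatives were equal totals, a filter on the lowest 25% of sites, a pseudocount of 0.5 or 5, a replicate block, a 10 kb gene limit and each library left out.

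Values are given for the strongest WT site of each family, the 4 lower and 4 higher non-overlapping sites with the largest differences, the 4 with the largest WT Foxp3 minus IgG difference among sites above IgG in both libraries, sites called by any tool, and sites in their own promoter window. Genes with 4 or more sites are named. A site picked for a difference shows it by choice, so that difference is no separate support. The family, lists and rules were chosen with earlier results of these data known. Sites of 1 Ptpn gene are not reported here. A count of 0 allows up to 3 reads; intervals and floors cover counting error only.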

Additional observations from a re-analysis of the deposited data

How the results depend on the processing

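Between the genotypes, calls over all sites went from 0 to 6 with DESeq2, and those at phosphatase sites from 0 to 1. Leaving out 1 library gave 0 to 643 calls over all sites, 0 to 8 at phosphatase sites, and phosphatase medians of -2.16 to 0.82. For WT Foxp3 against IgG, the 4 calls over all sites became 0 with a pseudocount of 5, equal totals, edgeR or DESeq2. Leaving out 1 library gave 0 to 189 calls over all sites, 0 to 5 at phosphatase sites, and medians of 0 to 3.08. For R397W Foxp3 against IgG the left-out medians ran from -1.48 to 1.57. Between IgG libraries, the 2 calls became 0 with a pseudocount of 5, equal totals, edgeR or DESeq2, and 0 to 15 with 1 library left out, with medians of -0.29 to 2.28. For the interaction, leaving out 1 library gave 0 to 182 calls over all sites, 0 to 4 at phosphatase sites, and medians of -2.64 to 0.22. A group left with 1 library is assumed to vary like the others.

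Between genotypes the libraries share only a number, and deviations of same-numbered libraries had correlations of 0.167 (Foxp3) and 0.0873 (IgG) over 5521 sites. Between antibodies the titles give 1 Treg sample name to a Foxp3 and an IgG library, without saying that the cells were the same, and the correlations were 0.0375 (WT) and 0.135 (R397W). With the replicate block, phosphatase calls were 0 in every comparison, and calls over all sites were 0 for WT Foxp3 against IgG and 1 between IgG libraries.

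Counted by genes, common sites occurred at 85.3% and eTreg-specific sites at 29.4% of phosphatase genes, against 79.3% and 23.6% of all 2760 genes with a site. With a 10 kb limit, 77 sites at 32 genes were left. Leaving out the 1% of sites with the most reads moved the common-class read share from 1.58 to 1.34% in R397W Foxp3, 1.30 to 1.15% in WT IgG and 1.45 to 1.18% in R397W IgG. Without Inpp4b, chosen after the data were seen, the class makeup stayed within its interval. The median was 0 reads per phosphatase site in all libraries numbered 2, although their reads over all sites (258781 to 394196) were not the lowest. The cause was not tested. The lowest totals were those of R397W libraries 1 (111274 with Foxp3 and 111359 with IgG), where a floor of 3 reads stands for the most signal.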

Other observations

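Beyond the 100 kb limit, the nearest sites to a phosphatase gene were 5, at Dusp6 (3 sites), Dusp4 and Ptprc. The nearest, a common site 118651 bp from Dusp6 (chr10:99385940-99386340), had 117 ± 35.1 normalised reads in WT Foxp3 and 59.1 ± 83.5 in R397W Foxp3 (SD, n = 2). The site 155667 bp from Dusp4 had 55.4 ± 27.0 in WT Foxp3 and 0 in both R397W Foxp3 libraries, and the site 161841 bp from Ptprc had 33.6 ± 28.6 and 0. These sites belong to no phosphatase gene under the rule and were not tested apart from the fit over all sites.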
